A study of Homo sapiens with 4 samples.

Results

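The genes described here are 46 ribosome biogenesis factors, the nucleolar and cytosolic proteins that build the small (40S) and large (60S) ribosomal subunits and are not part of the finished ribosome. They were chosen by name, as rows of the sgRNA count table whose gene was one of the 46, among 19112 genes in all. They held 184 of 77441 sgRNAs, 4 for each gene, and 183 of the 184 had a count above 0 in a column. In this pooled CRISPR-Cas9 knockout screen A549 cells, a human lung adenocarcinoma line, carried the lentiviral Brunello library, whose sgRNAs each guide Cas9 to a single gene. Transduced cells were selected with puromycin at 10 µg/ml, then kept for 3 weeks with 4 µM HQ461, a cytotoxic compound, or with its vehicle DMSO at 0.1%. The labels name 4 libraries, 2 per treatment, but the deposited table has 2 columns, 1 per treatment. No difference below therefore has a replicate check, and no test between the treatments was possible.

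Ribosome assembly starts in the nucleolus, where RNA polymerase I transcribes a long precursor of the ribosomal RNAs. Small nucleolar ribonucleoproteins (snoRNPs) modify this precursor, and a large particle around the U3 snoRNP, the small subunit (SSU) processome, folds and cleaves its 40S part. The pre-40S and pre-60S particles are then exported separately and completed in the cytosol. Proliferating cells need both subunits, so cells that lose such a factor are usually outgrown in a pooled culture, with or without a drug. HQ461 promotes the destruction of cyclin K by a cullin ligase. The screen compares how abundant each sgRNA was with HQ461 and with DMSO, and these counts do not measure cyclin K.

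The sgRNAs against ribosome biogenesis factors were rare in the vehicle culture. They had a median of 19.2 normalized counts with DMSO, against 127 for all targeting sgRNAs and 437 for the non-targeting controls. The library before transduction was not analysed here, so loss during growth and low starting abundance cannot be told apart. The 2 columns held 16127620 counts with HQ461 and 14428845 with DMSO. With HQ461 the member sgRNAs together took 0.0836% of all counts, with a 95% Clopper-Pearson (exact) interval of 0.0822% to 0.08505%. With DMSO they took 0.0515% (0.0504% to 0.0527%). These intervals, like those of ratios below, cover counting error only and treat reads as independent. PCR reads are not independent molecules, so the intervals can be too narrow even for that error. Much of the larger share with HQ461 came from a single sgRNA of NOB1. It held 3209 of the 13487 member counts with HQ461 and 97 of the 7434 with DMSO. In the DMSO column 18 of the 46 genes had under 100 counts summed over their sgRNAs, and 14 sgRNAs had 3 or fewer counts in both columns.

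With HQ461, the sgRNAs of most of these factors were in the median more abundant, relative to the library's median sgRNA, than with DMSO. The counts are of sgRNAs, and whether the genes were edited was not measured. The value of a gene was the median over its sgRNAs of the log2 fold change, HQ461 over DMSO, with 1 added to each normalized count. This gene value was above 0 for 35 of 46 factors, where 48.7% of all 19111 genes with a value lay above 0. The median over the factors was 0.64, with quartiles of 0.07 and 1.24, against a median of -0.02 over all genes. When the columns were scaled by total counts the direction turned, with a median of -0.022 for the factors, but all genes then lay at -0.70 and the distance between them stayed at 0.68. A gene value of 1 or more, that is 2-fold or more, is called raised here, and -1 or less lowered. Raised were 17 of the 46, against a background of 9.01% of all genes, and lowered was 1, RRP1, against 7.69%. In 12 factors every sgRNA lay above 0 (10.3% of all genes), and in none did every sgRNA lie below 0 (9.18% of all genes). These counts compare genes within 1 pair of pooled libraries and hold no spread between cultures.

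The single sgRNAs gave the same picture with more spread. Non-targeting controls, which cut no gene, had a 1st percentile of -1.67 and a 99th percentile of 2.92. Above that range lay 21 of 183 member sgRNAs, or 11.5%, where the share over all targeting sgRNAs was 2.44%. Below it lay 10, or 5.46%, against 7.53%. The 21 sgRNAs belonged to 15 factors, and 5 factors had 2 or more of them. BMS1 and GNL2 had 1 sgRNA above the range and 1 below it. The controls were far more abundant than the members' sgRNAs, so the shares were also taken within ranges of abundance. Among sgRNAs with under 30 normalized counts with DMSO, 17 of 114 member sgRNAs lay above the control range (7.59% of all such sgRNAs) and 8 below it (19.4%). Among those with 30 or more, 4 of 69 member sgRNAs lay above it (1.98%). The sgRNAs of 1 gene often disagreed. From the lowest to the highest sgRNA of a gene the median distance was 2.82 on the log2 scale for the factors, 2.13 for all genes and 3.04 for genes with up to 60 normalized counts with DMSO. In 29 of the 46 factors 1 sgRNA held over 50% of the counts with HQ461, as in 43.2% of all genes and 67.5% of genes with up to 60 normalized counts with DMSO. Of the 17 raised factors, 7 had no sgRNA above the control range. The log2 ratio of a factor's summed counts had an interval wholly above 0 in 30 factors (52.7% of all genes), among them 15 of the 17 raised, and wholly below 0 in 5 (26.9% of all genes). Many genes have such intervals, since they hold counting error alone.

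Factors of the early 40S pathway had a median gene value of 0.80 over 17 genes. Of these 16 lay above 0 and 7 were raised, and the log2 ratio of all their summed counts was 0.83. Such sums over a list, here and below, are not centred on 0. Scaling by total counts, which sets the ratio of the whole table to 0, moved the median of all genes from -0.02 to -0.70. For single genes the ratio of summed counts had a median of 0.22 over all genes. A sum over a list thus holds a shift of the whole table that was not taken off. All 3 proteins of the MPP10 complex, MPHOSPH10, IMP3 and IMP4, which hold the U3 snoRNA to the precursor, were among the raised. MPHOSPH10 (chromosome 2, 71130634 to 71150101 on GRCh38) had 75, 21, 104 and 87 counts with HQ461, against 12, 3, 24 and 57 for the same sgRNAs with DMSO. All 4 of its sgRNAs were thus above 0, with a gene value of 2.74, and the ratio of its summed counts was 2.11 on the log2 scale (1.77 to 2.46). The sgRNAs of IMP3 had 7, 149, 3 and 11 counts with HQ461 and 0, 42, 1 and 41 with DMSO. Its gene value of 1.82 therefore rests on 1 well counted sgRNA that was higher and 2 near the floor, while the fourth was lower, and with sgRNAs of at least 30 normalized counts with DMSO it was 0.51. IMP4 had a gene value of 1.18, with 3 of 4 sgRNAs above 0, and was raised in 3 of 9 alternative settings.

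Of the other raised early factors, NOL6, DIMT1 and DDX47 had few counts. NOL6, a protein of the SSU processome, had a gene value of 1.70, but its summed counts were 46 with HQ461 and 56 with DMSO, a log2 ratio of 0.24 (-0.35 to 0.83). DIMT1, the dimethyltransferase of the 18S RNA, had a gene value of 1.23, and its log2 ratio of summed counts was -0.036 (-0.62 to 0.54). In both genes 3 sgRNAs were higher and the most abundant with DMSO was lower. DDX47, an RNA helicase, had a gene value of 1.47 with 44 and 18 counts in sum, and 3 of its 4 sgRNAs had 3 or fewer counts in both columns. Counts or sgRNAs of NOL6, DIMT1, DDX47, WDR43, BMS1 and GNL2 were singled out after their values had been seen. WDR43, a subunit of the UTP-A complex that first binds the nascent precursor, was better counted, with 305 counts with HQ461 and 329 with DMSO. Its gene value was 1.23, but its most abundant sgRNA was lower, with 131 against 260 counts, and the log2 ratio of its summed counts was 0.42 (0.19 to 0.65). Its partners WDR75 and HEATR1 were below the 2-fold mark at 0.86 and 0.78. The processome proteins NOP14, NOC4L and KRR1 had gene values of 0.80, 0.33 and 0.04, and EMG1, a methyltransferase of the 18S RNA, 0.42. The helicases DDX52 and DDX10 were at 0.69 and 0.56, the latter from 3 sgRNAs. RRP9, a protein of the U3 snoRNP, was the 1 early factor below 0, at -0.38. BMS1, a GTPase of the processome, was at 0.16, the middle of 4 sgRNAs that ran from -3.42 to 3.46.

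The late pre-40S factors had a median of 0.63 over 8 genes, with 2 of them raised. The log2 ratio of all their summed counts was 2.14, but 0.77 without 1 sgRNA of NOB1. AK6, a nuclear adenylate kinase that acts on the 40S precursor, had 53, 79, 274 and 21 counts with HQ461, against 4, 12, 72 and 8 with DMSO. Each sgRNA was higher with HQ461, from 1.77 to 3.90 on the log2 scale, and the gene value was 2.78. NOB1, the endonuclease that makes the 3′ end of 18S RNA, had 3209, 180, 35 and 6 counts with HQ461 and 97, 10, 29 and 9 with DMSO. Its gene value was 2.66, but 1 sgRNA held 93.6% of its counts with HQ461, and without that sgRNA the value was 0.77. The same sgRNA also set the total of the members. Their summed counts, 13487 with HQ461 and 7434 with DMSO, had a log2 ratio of 1.39 (1.35 to 1.43), and 1.01 (0.97 to 1.06) without it. Both ratios include the shift of the whole table.

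PNO1, the partner that holds NOB1 on the particle, had a gene value of 0.65, and the kinase RIOK1 0.53. RIOK2, the kinase that precedes RIOK1, was lower. Its sgRNAs had 40, 7, 34 and 68 counts with HQ461 and 22, 12, 132 and 280 with DMSO, with a gene value of -0.82. The log2 ratio of its summed counts was -1.05 (-1.33 to -0.78). The 2 most abundant sgRNAs of RIOK2 were both lower, and 1 of the 4 was higher. The assembly factors TSR1 and LTV1, which stay on the particle into the cytosol, were both at 0.63. BYSL (bystin) was at -0.38.

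Factors of the 60S pathway had a median of 0.30 over 15 genes, a log2 ratio of summed counts of 1.25, and both ends of the range of gene values. CCDC86 (chromosome 11, 60842113 to 60851081), a nucleolar protein related to a yeast 60S factor, had 470, 345, 86 and 122 counts with HQ461. The same sgRNAs had 41, 47, 14 and 95 counts with DMSO. All 4 were higher, 3 of them above the control range, and the gene value of 3.21 placed CCDC86 at rank 32 of all genes. DDX18, an RNA helicase, had 34, 170, 49 and 16 counts with HQ461 and 4, 25, 31 and 16 with DMSO, with a gene value of 2.19. NSA2, a protein of pre-60S particles, had 23, 15, 42 and 1 counts with HQ461 and 4, 3, 25 and 1 with DMSO, a gene value of 1.84 on few reads. FTSJ3, a methyltransferase, BOP1 and NOP2, which methylates the 28S RNA, were raised too, at 1.24, 1.16 and 1.15. FTSJ3 was raised in 8 of 10 alternative settings, BOP1 in 7 and NOP2 in 6. BOP1 fell to 0.17 without its most enriched sgRNA, and NOP2 to 0.36 with sgRNAs of at least 30 normalized counts with DMSO.

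BOP1 forms the PeBoW complex with PES1 and WDR12, which processes the RNA of the large subunit. Its partners were not raised, at 0.47 for PES1 and -0.08 for WDR12. RRP1, a nucleolar protein of pre-60S particles, had the lowest gene value of all 46, at -1.70. Its sgRNAs had 28, 46, 4 and 0 counts with HQ461 and 11, 128, 37 and 7 with DMSO, so 3 were lower and 1 was higher. GNL3 (nucleostemin), a GTPase abundant in stem and tumour cells, had 5, 7, 19 and 2 counts with HQ461 and 4, 14, 72 and 14 with DMSO, a gene value of -0.89. NOC3L, a protein of pre-60S particles, had 53, 75, 42 and 3 counts with HQ461 and 54, 148, 135 and 26 with DMSO, a gene value of -0.80. Its partner NOC2L was at -0.25. In RRP1, GNL3 and NOC3L 1 of 4 sgRNAs lay above 0, and the intervals of their summed-count ratios lay below 0. The nucleolar proteins RRS1 and NOP16 had gene values of 0.30 and 0.23, and the GTPase GNL2 0.19, with sgRNAs from -3.46 to 3.42.

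The last 6 factors belong to snoRNPs or act on both subunits. NOP56, a core protein of the box C/D snoRNPs that guide methylation, had 257, 153, 4 and 8 counts with HQ461 and 19, 28, 1 and 16 with DMSO. Its gene value was 2.29, with 3 of 4 sgRNAs higher. Its partners in the same particles were not: NOP58 had 8, 14, 3 and 0 counts with HQ461 and 5, 14, 12 and 6 with DMSO, a gene value of -0.38, and the methyltransferase FBL was at -0.18. The ratios of summed counts of NOP58 and FBL had intervals that included 0. RRP12, an export factor, was raised at 1.72 from 12 counts in sum with DMSO and 43 with HQ461. DKC1, the pseudouridine synthase of the box H/ACA snoRNPs, had a gene value of 0.85, whereas its summed counts were 46 with HQ461 and 108 with DMSO, a log2 ratio of -0.70 (-1.23 to -0.19). DDX21, a nucleolar helicase, was at -0.10 on 11 and 19 counts.

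The 25 factors of the 40S pathway, early and late, had a median of 0.69, which was 0.39 above that of the 15 factors of the 60S pathway. Above 0 lay 22 of 25 and 10 of 15. Raised were 9 of 25 and 6 of 15 (9.01% of all genes). The shares past the 2-fold mark were thus close, and the difference lay in the lower part of the lists. Of 99 sgRNAs against 40S factors, 10 lay above the control range and 2 below it (2.02%). Of 60 sgRNAs against 60S factors, 8 lay above and 7 below (11.7%). Over all targeting sgRNAs 2.44% lay above and 7.53% below. Among those under 30 normalized counts with DMSO the shares were 7.59% and 19.4%. The order of the medians depended on how a gene was summarised. With the ratio of summed counts in place of the median over sgRNAs the 60S factors were higher, and the difference was -0.12. It was 0.087 with sgRNAs of at least 30 normalized counts with DMSO. Genes are not replicates, so the difference was not tested.

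Low abundance with DMSO was common to most members, and their values were read against genes of like abundance. A median of up to 60 normalized counts with DMSO was found for 43 of the 46 factors and for 2208 of all genes. Within it 17 factors were raised (14.6% of these genes) and 1 was lowered (19.6%), and the medians were 0.69 for the factors and -0.14 for the genes. In the range up to 10 counts 6 of 12 factors were raised, against 27.1% of all genes there. From 10 to 30 counts 8 of 18 were raised, against 12.9%, and from 30 to 60 counts 3 of 13, against 12.6%. The 3 factors above 60 counts, RIOK2, NOC3L and KRR1, had gene values of -0.82, -0.80 and 0.04. Across the 46 factors the gene value had a Pearson's r of -0.26 and a Spearman's rho of -0.29 with the count with DMSO. This is a description only, since the count with DMSO is also the denominator of the gene value.

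In regions of the genome whose genes had high medians lay 4 of the factors. Genes of 11q from the centromere to DDB1, a subunit of the cullin ligase, had a median gene value of 1.80, and CCDC86 lies among them, second of 136. FTSJ3, DDX52 and TSR1, at 1.24, 0.69 and 0.63, lie on chromosome 17, whose other genes had a median of 0.98. Without these 4 factors, and with these regions left out of the background, 15 of 42 were raised (5.7% of genes elsewhere) and the median was 0.60. The part of position in the values of the 4 factors was not tested. Of the 46 factors 16 overlap another protein-coding gene in the RefSeq annotation, and the positions of the sgRNAs within them were not analysed here. AK6 overlaps TAF9, a subunit of the SAGA and TFIID complexes, and RAD17, a checkpoint gene. The sgRNAs listed for TAF9 had a gene value of 0.44, with 2 of 4 above 0 and a log2 ratio of summed counts of 1.84 (1.70 to 1.97), and those for RAD17 a gene value of -0.68. CCDC86 overlaps PTGDR2, a prostaglandin receptor gene, which was itself raised at 1.25, with 4 of 4 sgRNAs above 0. Among the 30 factors without such an overlap 11 were raised and the median was 0.67.

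Other genes of the pathway lay in the same order. Their lists were written with earlier results of these data known, and the values come from the same columns, so they are no independent check. A list of 33 further 40S factors had a median of 0.75, with 13 raised and 1 lowered, and reached from NGDN at -1.15 to UTP6, on chromosome 17, at 2.96. A list of 52 further 60S factors had a median of 0.22, with 9 raised and 4 lowered, from RPF2 at -1.69 to GTPBP4 at 2.46. The shares raised were 39.4% for the 40S list and 17.3% for the 60S list. Median normalized counts with DMSO were 19.6 and 29.2, in a range where 12.9% of all genes were raised and 25.3% lowered. Ribosomal protein genes, whose products the factors assemble, had medians of 0.92 for the small subunit (14 of 32 raised, 2 lowered) and 0.37 for the large one (17 of 47 raised, 4 lowered). Their median normalized counts with DMSO were low, at 6.66 and 12.1, where 27.1% and 12.9% of all genes were raised. Outside chromosome 17 and proximal 11q the large-subunit list had a median of 0.23, with 12 of 41 raised. In all 3 pairs of lists the median of the small subunit was thus above that of the large one, and within each pair the quartile ranges overlapped. Not every nucleolar list was high. A list of 11 further snoRNP and scaffold proteins had a median of -0.26, and NPM1 (nucleophosmin) was its 1 raised gene, at 1.95. RNA polymerase I and its factors had a median of -0.29 over 14 genes, with 4 lowered and 1 raised, UBTF at 2.86, which lies on chromosome 17. POLR1C, a subunit shared with RNA polymerase III, was the lowest of them at -2.24. The snoRNP and RNA polymerase I lists had median normalized counts with DMSO of 24.2 and 25.8. From 10 to 30 such counts 12.9% of all genes were raised and 25.3% lowered, with a median of -0.27. Scaled by total counts, the large-subunit proteins turned to -0.20 and the other biogenesis lists together from 0.43 to -0.22. None of these differences between lists was tested.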

How the data were processed

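Genomic DNA of sgRNA-transduced A549 cells was amplified and sequenced, and the authors counted reads per sgRNA with MAGeCK 0.5.9.2. The deposited values are these counts, not normalized, with 1 column per treatment. The sources used here do not state the way in which replicates were combined. Counts were scaled by median ratios (0.833 for HQ461, 1.20 for DMSO) in Python 3.11.15 with numpy 2.4.6 and pandas 2.3.3, and sgRNAs at 0 in both columns were left out. Intervals of ratios are exact binomial intervals at 95%. The gene value was tested on simulated data with known fold changes. Recovery of fold changes was checked only for genes with a median of at least 30 normalized DMSO counts. The median over the members was 19.4, so most of them lie below the range checked.

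The members and lists were chosen with earlier results of these data known. Factors were assigned to 40S or 60S from their textbook roles. This was least certain for DDX10, DDX18, DIMT1, FTSJ3, RRP1, NOC2L and CCDC86. Without these the 40S median was 0.43 above that of the 60S factors. Counts of every sgRNA are given for the 8 members with the highest and the 5 with the lowest gene value. Positions came from RefSeq on GRCh38, where all 46 members were found by symbol. The study's own ranking by MAGeCK was not used. Alternatives were scaling by total counts, TMM factors (edgeR 4.0.16) or controls, a pseudocount of 5, filters on counts, other gene summaries and removal of chromosome 17 and 11q up to 71 Mb. The sequences of the sgRNAs were not analysed here.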

Additional observations from a re-analysis of the deposited data

How the results depend on the processing

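Scaling by total counts moved the median gene value of all genes to -0.70 and turned the medians of the members to -0.022, of the 60S factors to -0.38, of the other biogenesis genes to -0.22 and of the large-subunit ribosomal proteins to -0.20. The members stayed 0.68 above all genes, with 10 raised (2.72% of all genes) and 5 lowered (32.1%). Over all alternatives this excess ran from 0.42 to 0.70. The number raised was 11 with a pseudocount of 5 (8.23% of all genes) and 11 without the most enriched sgRNA of each gene (5.21%). It was 11 without overlapping members (8.99%). When sgRNAs under 30 normalized DMSO counts were left out, 9 of the 35 members that remain were raised (8.92%). The number lowered was 5 of 35 with that minimum (8.06% of all genes) and 2 with the ratio of summed counts (3.68%). It was 6 without the most enriched sgRNA (17.4%) and 0 with counts of 0 set to 3 (7.02%). CCDC86, AK6, MPHOSPH10, NOP56, DDX18, NSA2 and RRP12 were raised under every alternative that gave them a value. The minimum of 30 counts gave no value for NOP56, DDX18, NSA2 and RRP12. Removal of chromosome 17 and proximal 11q gave none for CCDC86, and removal of overlapping members none for CCDC86, AK6 and NSA2. With the minimum of 30 counts NOL6 turned to -1.47, DIMT1 to -1.74 and the large-subunit ribosomal proteins to -0.057. The ratio of summed counts turned DIMT1 to -0.035. Late minus early 40S factors, -0.17, turned to 0.50 with the minimum and to 0.068 with summed counts. The difference between 40S and 60S was 0.087 with the minimum, 0.082 without the most enriched sgRNA and -0.12 with summed counts. It was 0.55 without chromosome 17 and proximal 11q. Without the most enriched sgRNA the medians were 0.21 for the members, 0.036 for the other biogenesis genes and -0.041 for the large-subunit ribosomal proteins. Member sgRNAs above the control range were 4.92% with a pseudocount of 5, 5.80% with the minimum and 4.38% without the most enriched sgRNA. The causes were not tested, apart from the fewer sgRNAs or members that a filter leaves. Removal of sgRNAs at 3 or fewer counts in both columns, of members that overlap another gene and of the NOB1 sgRNA of most counts, and the setting of counts of 0 to 3, were chosen after the data had been seen. No paired analysis was possible because each treatment is a single column, and for the same reason no replicate could be left out. For most members the precision is limited by their few counts with DMSO.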
